A study of Mus musculus with 11 samples.

Results

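The 7 noncoding RNAs Malat1, Neat1, Rn45s, Gas5, Meg3, Kcnq1ot1 and Snhg1 were followed through the count tables of sorted colon macrophages. They were found by gene symbol, and all 7 were among the 23282 entries listed in each table. The study measured gene expression by RNA sequencing in 11 libraries of mouse colon cells with the surface pattern CD45+ CD11b+ Ly6G- Ly6C- MHCII+ CD64+. The libraries were labelled wild type (WT) or Csf1r-EP4-/- (here KO), a strain lacking EP4, the prostaglandin E2 receptor encoded by Ptger4, and were titled day 0 or day 39 of a colitis course. Every group carried the same treatment note, 2.5% dextran sodium sulphate (DSS) in the drinking water over 5 days. There were 3 day 0 KO, 2 day 0 WT, 3 day 39 KO and 3 day 39 WT libraries. The strain name puts Csf1r, the gene of a receptor of the macrophage lineage, before EP4, and the labels say no more on how the deletion was driven. They also do not give the age or sex of the mice, or whether each library came from 1 mouse, so the spread between libraries may be partly technical.

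Long noncoding RNAs act without being translated. Malat1 and Neat1 stay in the nucleus, Malat1 at nuclear speckles, where splicing factors gather, and Neat1 as the scaffold of paraspeckles; their genes are neighbours, with no other RefSeq gene lying wholly between them. Rn45s is the ribosomal RNA precursor, made by RNA polymerase I and cut into the mature ribosomal RNAs, and it normally carries no poly(A) tail. Gas5 and Snhg1 are host genes whose introns yield small nucleolar RNAs, the guides of ribosomal RNA modification, while Meg3 and Kcnq1ot1 are imprinted RNAs, expressed from one parental copy.

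The libraries held 4003299 to 14207919 counts in all, with the 3 day 0 KO libraries (5982548, 8284551 and 14207919) the deepest. Ptger4, the check of the genotype labels, had 1350, 0 and 890 counts in the libraries labelled day 0 KO, 0 and 0 in day 0 WT, 1, 8 and 4501 in day 39 KO and 1481, 152 and 7286 in day 39 WT. It was high in some libraries labelled KO and at 0 in some labelled WT, so it went against the labels, and every genotype direction below refers to the labels alone. A list of 18 macrophage markers summed to 17050 to 74440 total CPM (counts scaled to an equal sum over all genes in each library), and in each group 1 of the 18 was at 0 throughout. Macrophage markers were thus present in part, with 12 to 15 of the 18 above 3 counts in every library of a group. Genes of the sort markers were uneven: Ptprc (CD45) had 0 to 2407 counts, Itgam (CD11b) 0 to 3336 and Fcgr1 (CD64) 0 to 2063. H2-Aa (MHCII) was high throughout, at 26244 to 135820 counts. In the same libraries 14 muscle genes summed to 2856 to 25940 total CPM and 20 epithelial markers to 437.9 to 11430.

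Promoters of 3 members are shown because EP4 signals through cyclic AMP, whose response element (CRE) is read by CREB family factors. The windows are RefSeq sequences of build GRCm38.p6, from 250 bases before to 50 after an annotated start, and a capital stretch marks the CRE core TGACG on either strand, written CGTCA where it lies on the opposite one. RefSeq windows were matched for Malat1, Gas5, Meg3, Kcnq1ot1 and Snhg1; Neat1 and Rn45s have none here.
Malat1, chr19:5802623-5802922, minus strand: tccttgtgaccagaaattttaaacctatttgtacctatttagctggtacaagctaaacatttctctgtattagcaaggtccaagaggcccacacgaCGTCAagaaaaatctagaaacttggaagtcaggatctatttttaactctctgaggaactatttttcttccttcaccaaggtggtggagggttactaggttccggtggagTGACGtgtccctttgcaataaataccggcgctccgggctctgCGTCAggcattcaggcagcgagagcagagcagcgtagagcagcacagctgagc
Gas5, chr1:161034916-161035215, plus strand: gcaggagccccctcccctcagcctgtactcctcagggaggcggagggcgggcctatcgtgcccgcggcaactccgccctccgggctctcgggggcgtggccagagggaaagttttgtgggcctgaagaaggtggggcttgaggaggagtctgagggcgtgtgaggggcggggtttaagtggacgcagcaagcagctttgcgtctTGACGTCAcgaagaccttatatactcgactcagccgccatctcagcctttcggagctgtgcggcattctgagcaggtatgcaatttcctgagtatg
Meg3, chr12:109540746-109541045, plus strand: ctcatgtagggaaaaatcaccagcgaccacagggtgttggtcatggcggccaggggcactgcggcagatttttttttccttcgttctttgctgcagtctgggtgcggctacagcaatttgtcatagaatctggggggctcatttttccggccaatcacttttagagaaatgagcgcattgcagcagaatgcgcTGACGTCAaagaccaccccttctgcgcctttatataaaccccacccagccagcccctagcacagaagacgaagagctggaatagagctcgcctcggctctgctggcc
The full palindrome TGACGTCA, which holds the core on both strands, began 46 bases before the start in the Gas5 window and 57 bases before it in the Meg3 window. It was in 1.79% of 32851 promoter windows of the same length. The Malat1 window held the core 3 times without the full palindrome, and the core was in 20.8% of windows. The other Gas5 and Meg3 windows and that of Snhg1 held no core, and that of Kcnq1ot1 held 1. A match to these letters is a description of the sequence and not a sign that a factor binds there.

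The library kit (Lexogen QuantSeq) primes with oligo-dT, so stretches of A inside a transcript bear on where reads can start. The longest run of A in the longest GENCODE transcript is shown in capitals for Malat1, Neat1, Gas5 and Kcnq1ot1, with 20 bases on either side.
Malat1: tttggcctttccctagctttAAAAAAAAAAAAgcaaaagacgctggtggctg
Neat1: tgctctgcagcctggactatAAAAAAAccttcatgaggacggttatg
Gas5: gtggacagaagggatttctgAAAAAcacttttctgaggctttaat
Kcnq1ot1: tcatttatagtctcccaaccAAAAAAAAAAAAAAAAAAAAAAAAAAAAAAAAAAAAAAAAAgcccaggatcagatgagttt
Malat1, a transcript of 6983 bases, has 1 run of at least 10 A, of 12 A and ending 298 bases from its 3′ end. Kcnq1ot1, of 93092 bases, has 10 such runs, the longest of 41 A. Neat1 (20771 bases), Gas5 (2556 bases) and Snhg1 (2728 bases) have 0, with longest runs of 7, 5 and 5 A. Of 55341 longest transcripts, with a median length of 1161 bases, 9.74% have at least 1 such run, so the long members had more sequence in which one could lie. The share of reads that began at these runs was not tested, because the tables hold counts per gene only.

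Rn45s and Malat1 together took 9.76% to 19.4% of all counts of a library. Rn45s ranked first among all genes in 11 of 11 libraries, and Malat1 ranked second in all but day 0 KO replicate 1, where its rank was 4. Read counts at these ranks describe how the library was filled and not how many molecules a cell held.

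Rn45s made up 8.04%, 12.5% and 9.32% of the day 0 KO libraries, 11.7% and 9.95% of day 0 WT, 13.9%, 13.7% and 15.99% of day 39 KO and 13.7%, 11.4% and 13.3% of day 39 WT. In KO the day 39 shares lay above every day 0 share, as they did for 7.80% of tested genes, while in WT the lowest day 39 library lay below the highest day 0 library. The group means were 9.96% ± 2.31 (SD, n = 3) in day 0 KO, 10.8% ± 1.22 (n = 2) in day 0 WT, 14.5% ± 1.28 (n = 3) in day 39 KO and 12.8% ± 1.24 (n = 3) in day 39 WT. The highest share was 1.99-fold the lowest, the narrowest range of the 6 RNAs detected. Many near-identical copies of the ribosomal RNA genes exist, and how reads matching several copies were counted is not given in the sources used here, so the Rn45s counts are uncertain.

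Malat1 made up 1.72%, 1.03% and 1.20% of the day 0 KO libraries, 2.29% and 1.23% of day 0 WT, 3.11%, 3.09% and 3.43% of day 39 KO and 2.63%, 2.14% and 3.25% of day 39 WT. The 3 day 39 KO libraries were close to each other and all above day 0 KO, as for 7.80% of tested genes. Day 39 WT replicate 2 lay below day 0 WT replicate 1 in share, though not on the edgeR scale used below. The group means were 1.31% ± 0.359 (SD, n = 3) in day 0 KO, 1.76% ± 0.753 (n = 2) in day 0 WT, 3.21% ± 0.192 (n = 3) in day 39 KO and 2.67% ± 0.555 (n = 3) in day 39 WT. Exactly the same Malat1 count, 102685, was listed for day 0 KO replicate 1 and day 39 WT replicate 2. Those libraries shared equal counts for 2 of the 432 genes that had at least 1000 counts in both, Malat1 included, and their totals were 5982548 and 4797340.

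**Figure D1:**
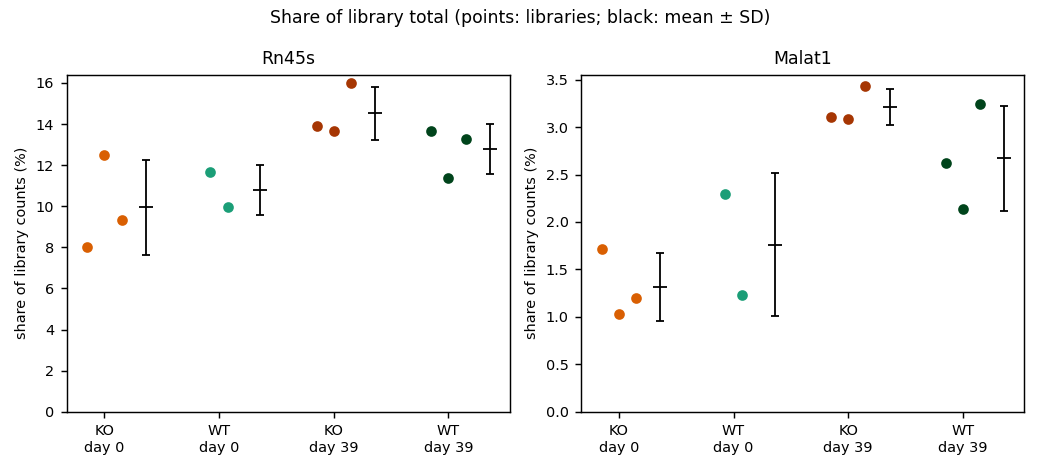
Share of each library's counts taken by Rn45s (left) and Malat1 (right), in percent. Points are libraries and black marks are the group mean ± SD; in KO every day 39 point lies above every day 0 point in both panels, and in WT the groups overlap on this scale.

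Malat1 and Rn45s were called at day 39 against day 0 in KO in an earlier edgeR analysis of these libraries, and that contrast is given here as a description with no test. On edgeR's scale, plain CPM from here on, in which counts are scaled by TMM over the tested genes, Malat1 stood at 12859 CPM ± 3156 (SD, n = 3) in day 0 KO and 37733 CPM ± 8366 (n = 3) in day 39 KO, and its log2 fold change was 1.55 ± 0.30 (SE). Rn45s averaged 99090 CPM ± 30033 (SD, n = 3) at day 0 and 171217 CPM ± 42684 (SD, n = 3) at day 39 in KO, a log2 fold change of 0.79 ± 0.15 (SE). The KO days of Malat1 did not overlap in CPM, which 8.07% of tested genes also showed with day 39 higher. In CPM the KO groups of Rn45s overlapped, since replicate 2 had 133350 CPM at day 0 and 131570 CPM at day 39. The error that the 4 groups' own spread of log2 CPM gives was 0.30 for both RNAs, so for Rn45s the edgeR error was 2.06-fold smaller than its replicates show. Of 6987 genes tested in this contrast, 11 (0.157%) were called, 9 of them higher at day 39 (0.129%), and their share says nothing further about 2 genes chosen from it. The call that chose them was lost in 5 of 20 alternatives for Malat1 and in 10 of 20 for Rn45s, for both also without day 0 WT replicate 1, a library of neither KO group. The 2 genes called lower at day 39 were the muscle markers Pvalb and Tnnc2, and the 14 muscle markers summed to 2856, 24370 and 25940 total CPM in day 0 KO and to 3719, 3823 and 3105 in day 39 KO. The day 0 KO libraries with the high muscle sums (replicates 2 and 3) also had the lowest Malat1 shares of all 11; the part of muscle cells in these values was not tested.

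The time contrast in WT compares other libraries than the contrast that chose Malat1 and Rn45s, although all 11 share one fit, its scaling and its dispersions. There edgeR called 0 of the 6 tested members, with 3 (Malat1, Rn45s and Neat1) at an unadjusted p-value under 0.05; DESeq2 called 0 and limma-voom 2 (Malat1 and Rn45s). Over all genes the unadjusted share was 6.68%, DESeq2 called 27.8% of the 4236 genes to which it gave an adjusted p-value, and limma-voom called 2.42%. Of 6987 genes, 1 (0.0143%) had an edgeR adjusted p-value under 0.05, and 467 had an unadjusted p-value under 0.05. Malat1 had a log2 fold change of 0.82 ± 0.33 (SE), from 16259 CPM ± 2049 (SD, n = 2) to 28791 CPM ± 8770 (n = 3), with an edgeR adjusted p-value of 0.414. Its CPM did not overlap between the days, which 12.7% of tested genes also showed in this direction, and the exact two-sided permutation test of log2 CPM gave p = 0.2 (adjusted p = 0.9 over 12 tests; with 10 arrangements no p below 0.1 is possible). Rn45s had a log2 fold change of 0.39 ± 0.17 (SE), from 105175 CPM ± 21159 (SD, n = 2) to 137416 CPM ± 33731 (n = 3), with an edgeR adjusted p-value of 0.414 and an exact permutation p of 0.3. Without day 0 WT replicate 1 the Rn45s value was 0.0079, and without day 0 WT replicate 2 it was 0.69. Both values were positive under TMM and negative under upper-quartile scaling (-0.93 for Malat1 and -1.53 for Rn45s), where edgeR called Rn45s lower (adjusted p = 4.59e-05). The median of all tested genes in this contrast was 1.64 under TMM, so relative to it Malat1 stood at -0.82 and Rn45s at -1.26. Upper-quartile scaling put that median at 0.48, against 1.31 with DESeq2 size factors and 1.42 with library size only. Leaving out a library moved it from 0.03 (without day 39 WT replicate 1) to 3.89 (without day 0 WT replicate 1). Without day 39 WT replicate 1, Malat1 (0.72) and Rn45s (0.22) both stood above the median.

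Averaged over both days, neither RNA passed the edgeR test between KO and WT under TMM. This contrast weighs the KO libraries of both days equally and so is separate from the contrast over time that chose Malat1 and Rn45s. Malat1 had a log2 difference of 0.03 ± 0.22 (SE, edgeR adjusted p = 1) and was negative under each other scaling. Rn45s had 0.12 ± 0.11 (SE, edgeR adjusted p = 0.692) and was -0.92 with upper quartile scaling, where edgeR called it (adjusted p = 0.00178). Of the 6 tested members edgeR called 0, with 0 at an unadjusted p-value under 0.05, DESeq2 called 0 and limma-voom called 1 (Rn45s, at -0.096, the opposite sign). The edgeR test called 0 of 6987 genes (0.00%) in this contrast, with 989 (14.2%) at an unadjusted p-value under 0.05, while DESeq2 called 909 (21.9% of 4160 with an adjusted p-value) and limma-voom 21 (0.301%). The median of all tested genes was 0.65, so relative to it Malat1 stood at -0.62 and Rn45s at -0.53. Leaving out a library moved that median between 0.09 and 2.37. Exact permutation within days gave p = 0.905 for Malat1 and p = 0.665 for Rn45s over 200 arrangements, which allow no p below 0.005. Within days, as values only, Malat1 was at -0.34 ± 0.32 (SE) at day 0 and 0.39 ± 0.29 at day 39, and Rn45s at -0.09 ± 0.16 and 0.32 ± 0.15. At day 0 upper-quartile scaling gave -2.03 for Malat1 and -2.04 for Rn45s, and without day 0 WT replicate 2 Rn45s turned to 0.26. At day 39 leaving out a library gave 0.13 to 0.57 for Malat1 and 0.11 to 0.48 for Rn45s. The differences of these differences were 0.73 ± 0.43 (SE) for Malat1 and 0.40 ± 0.22 for Rn45s, and without day 0 WT replicate 2 the latter was -0.05. With upper-quartile scaling they were 2.31 and 2.24. These values contain the contrast over time that chose both RNAs, so no test of them is given.

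**Figure D2:**
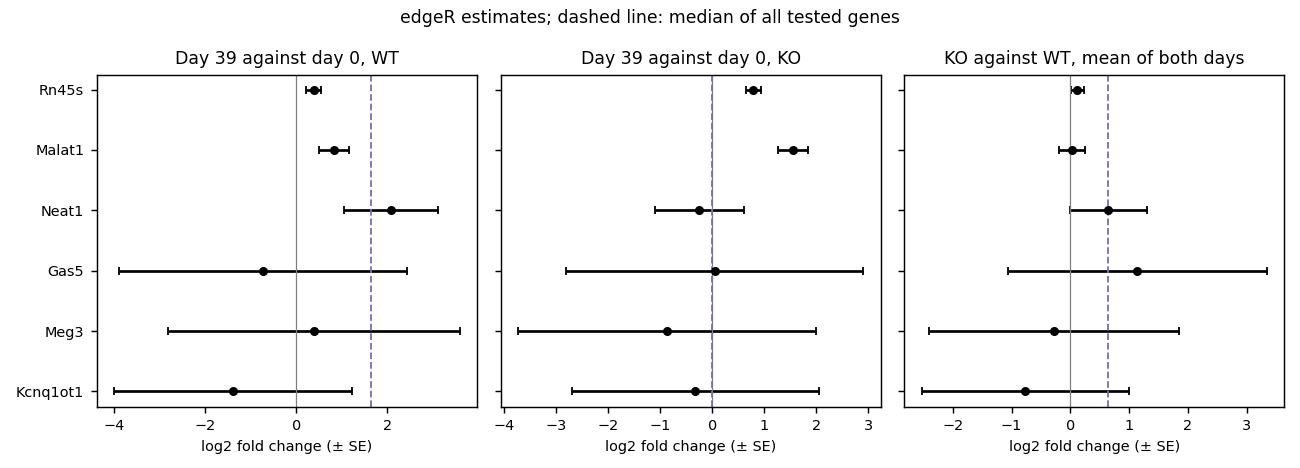
Log2 fold changes ± SE from the edgeR fit for the 6 tested RNAs: day 39 against day 0 in WT, the same in KO, and KO against WT averaged over days. The dashed line is the median of all tested genes; Rn45s and Malat1 have the shortest error bars, and their WT values, positive here, turn negative with upper quartile scaling.

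A ratio of counts inside one library does not depend on the scaling. Malat1 had 0.213, 0.0819 and 0.129 counts per Rn45s count in day 0 KO, 0.196 and 0.123 in day 0 WT, 0.224, 0.226 and 0.214 in day 39 KO and 0.192, 0.188 and 0.244 in day 39 WT. The day 39 KO libraries were nearly equal, at a mean of 0.221 ± 0.00606 (SD, n = 3), and stood just above the highest day 0 KO library, whose group mean was 0.141 ± 0.0667 (n = 3). In WT the days overlapped, with means of 0.160 ± 0.0516 (n = 2) and 0.208 ± 0.0314 (n = 3). The ratio uses the KO contrast over time and therefore has no test here, and no share over other gene pairs was computed.

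Neat1, the paraspeckle scaffold, had 21188, 10615 and 30474 counts in day 0 KO, 7157 and 16 in day 0 WT, 10439, 4081 and 7528 in day 39 KO and 13080, 4178 and 15513 in day 39 WT. It was abundant in 10 of 11 libraries and nearly missing from day 0 WT replicate 2, a library of 5126194 counts in which Malat1 had 62856. Its means were 2255 CPM ± 1045 (SD, n = 3) in day 0 KO, 641 CPM ± 901 (n = 2) in day 0 WT, 1892 CPM ± 977 (n = 3) in day 39 KO and 2712 CPM ± 1708 (n = 3) in day 39 WT. In WT the log2 fold change over time was 2.08 ± 1.04 (SE, edgeR adjusted p = 0.414; exact permutation p = 0.2), and the groups overlapped. Relative to the median of all tested genes, which itself moved when a library was left out, it was 0.44. A single library decided this value: it was 1.18 without day 0 WT replicate 2 and 9.31 without day 0 WT replicate 1. The spread of its own replicates gave an error of 2.14 for the same contrast, 2.07-fold the edgeR error.

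Neat1 did not pass between genotypes. At day 0 every KO library was above both WT libraries in CPM, as were 6.73% of tested genes, but in share of the library they overlapped (0.128% in KO replicate 2 against 0.165% in WT replicate 1). The log2 difference was 1.81 ± 1.02 (SE, edgeR adjusted p = 0.381), and it was 9.09 without WT replicate 1 and 0.96 without WT replicate 2. In that contrast 1 of 6987 genes (0.0143%) was called, and the median of all was 1.08. At day 39 the difference was -0.52 ± 0.86 (SE, edgeR adjusted p = 0.963), where 2 genes (0.0286%), the muscle markers Pvalb and Tnnc2, were called, and averaged over days it was 0.65 ± 0.65 (SE, edgeR adjusted p = 0.718; 4.23 and 0.16 without the same libraries). The value over time in KO was -0.25 ± 0.86 (SE). Leaving out a library moved the day 39 value between -0.98 and -0.15 and the KO value over time between -0.63 and 0.18, which was reached without day 0 KO replicate 1.

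Malat1 and Neat1 are neighbours in the genome, and their counts were set against each other within libraries. Neat1 had 0.206, 0.125 and 0.179 counts per Malat1 count in day 0 KO and 0.0728, 0.0271 and 0.0467 in day 39 KO, without overlap. In WT the ratios were 0.0722 and 0.000255 at day 0 and 0.124, 0.0407 and 0.0955 at day 39, with overlap. The KO ratio contains Malat1, which was chosen from the same contrast, so it is a description with no test. How often the ratios of other gene pairs do not overlap was not counted.

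**Figure D3:**
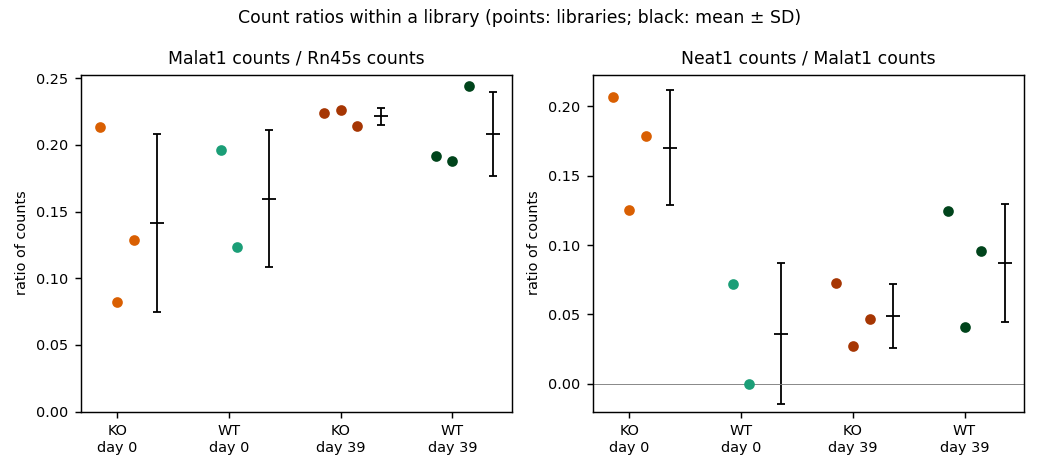
Malat1 counts per Rn45s count (left) and Neat1 counts per Malat1 count (right) in each library, as plain ratios. Points are libraries and black marks are the mean ± SD; the day 39 KO points lie within 0.214 to 0.226 on the left and below every day 0 KO point on the right.

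Gas5, a small nucleolar RNA host, was found in every library but over a wide range. It had 1159, 1884 and 4909 counts in day 0 KO, 746 and 695 in day 0 WT, 917, 36 and 1842 in day 39 KO and 201, 1021 and 88 in day 39 WT. In CPM the day 0 libraries were closer together than those of day 39, of which 3 of 6 were low. Its level was 250 CPM ± 67.9 (SD, n = 3) in day 0 KO, 149 CPM ± 21.6 (n = 2) in day 0 WT, 258 CPM ± 262 (n = 3) in day 39 KO and 89.4 CPM ± 87.8 (n = 3) in day 39 WT. Every day 0 KO library was above both day 0 WT libraries, as for 6.73% of tested genes, with a log2 difference of 0.75 ± 3.27 (SE, edgeR adjusted p = 1) that turned to -1.18 with upper quartile scaling. At day 39 the difference was 1.53 ± 2.92 (SE, edgeR adjusted p = 0.983), over time in WT it was -0.73 ± 3.16 (SE, edgeR adjusted p = 0.972), and averaged over days KO against WT was 1.14 ± 2.21 (SE, edgeR adjusted p = 0.958). Over time in KO the value was 0.05 ± 2.86 (SE). Leaving out a library moved the day 39 value between 0.45 (without KO replicate 3) and 2.73 (without WT replicate 2), and the WT value over time between -2.07 (without day 39 replicate 2) and -0.26 (without day 39 replicate 3). The averaged value ranged from 0.59 to 1.70, that at day 0 from 0.38 to 1.04 and that over time in KO from -1.03 to 0.62.

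Meg3 was present or nearly missing within every group. It had 3, 3595 and 3427 counts in day 0 KO, 1997 and 4 in day 0 WT, 894, 1 and 499 in day 39 KO and 3, 2022 and 1492 in day 39 WT. Each group held exactly 1 library with 4 or fewer counts, so no group stood apart from another. No contrast passed: the log2 values were 0.38 ± 3.21 (SE, edgeR adjusted p = 1) over time in WT, 0.36 ± 3.21 (SE, edgeR adjusted p = 1) between genotypes at day 0, -0.90 ± 2.86 (SE, edgeR adjusted p = 1) at day 39 and -0.27 ± 2.12 (SE, edgeR adjusted p = 1) averaged over days. Over time in KO the value was -0.87 ± 2.86 (SE). Leaving out a library moved it between -1.66 and 0.06 (without day 0 KO replicate 2), and the day 39 value between -1.79 and -0.31. The other values ranged more widely: over time in WT from -0.55 to 7.72, at day 0 from -0.82 to 7.75 and averaged from -0.92 to 3.38.

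Kcnq1ot1, which is transcribed antisense to Kcnq1, was equally uneven. It had 1012, 4209 and 0 counts in day 0 KO, 2 and 4895 in day 0 WT, 2172, 0 and 2 in day 39 KO and 1055, 1846 and 1 in day 39 WT. There were 6 libraries with over 100 counts and 5 with 2 or fewer, and these 5 came from all 4 groups. No contrast passed. The log2 values were -1.39 ± 2.61 (SE, edgeR adjusted p = 0.843) over time in WT, -1.30 ± 2.61 (SE, edgeR adjusted p = 0.905) between genotypes at day 0, -0.23 ± 2.37 (SE, edgeR adjusted p = 1) at day 39 and -0.76 ± 1.77 (SE, edgeR adjusted p = 0.994) averaged over days. Over time in KO the value was -0.32 ± 2.37 (SE), -9.59 without day 39 KO replicate 1 and 1.09 without day 0 KO replicate 2. Kcnq1, the gene on the other strand, had counts only at day 39 (494 and 12 in KO replicates 1 and 2, and 181 in WT replicate 3). Whether counting used strand is not given in the sources used here, so reads where the genes overlap may have been given to either. Kcnq1 was at 0 in the libraries with 4895, 4209, 1846, 1055 and 1012 Kcnq1ot1 counts. Its highest count, 494, was in day 39 KO replicate 1, which had 2172 Kcnq1ot1 counts.

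Snhg1 had 0 counts in all 11 libraries and was the only member left out by the filter on low counts. A count of 0 allows up to 3 counts, which is 0.211 total CPM in the deepest library (day 0 KO replicate 3) and 0.749 total CPM in the shallowest (day 39 WT replicate 1); these limits cover counting error only.

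**Figure D4:**
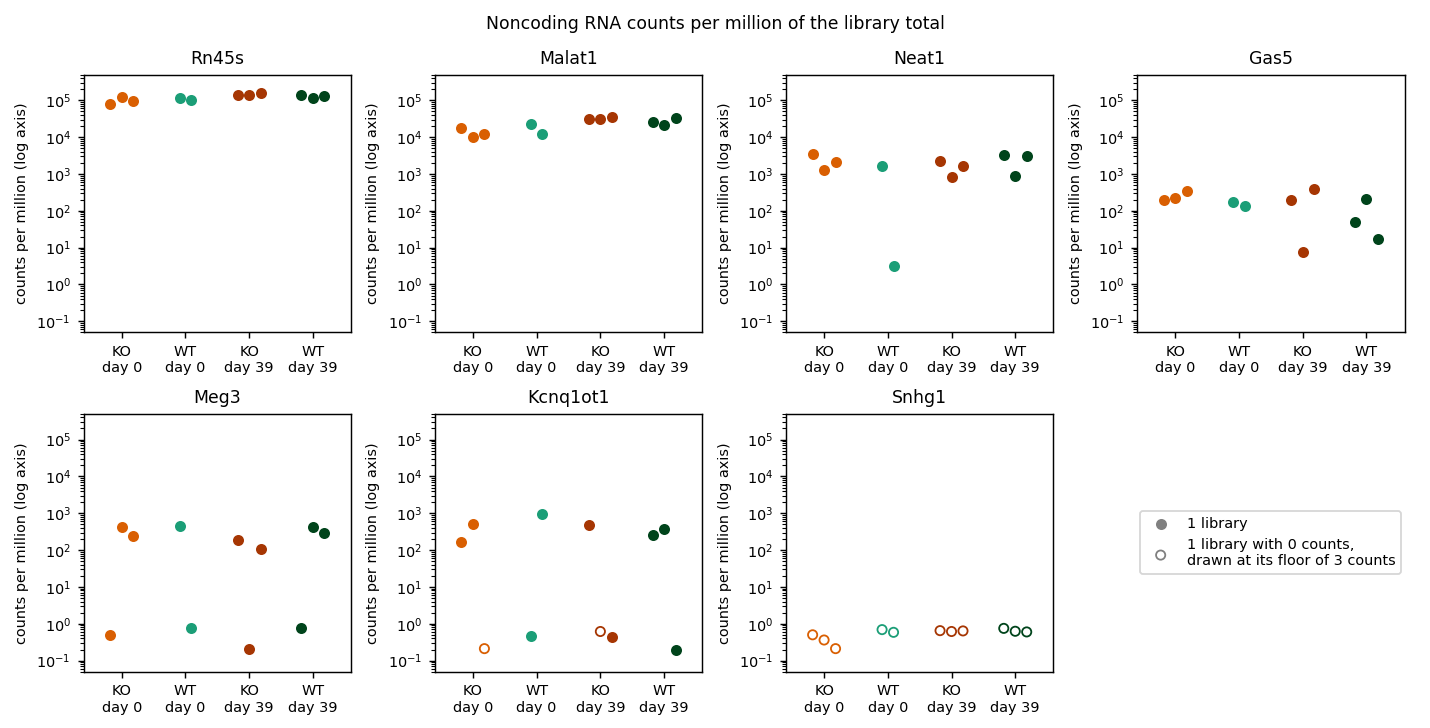
Total CPM, on a log axis, for each RNA and library, grouped by label and day. Filled points are libraries with counts and open points are libraries at 0, drawn at the limit that 3 counts give; Rn45s and Malat1 form tight rows, Meg3 and Kcnq1ot1 split into high and near-absent libraries in every group, and Snhg1 is at 0 throughout.

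The genes whose log2 CPM (with 1 added) ran most like a member over the 11 libraries were sought among 6567 genes with a mean of at least 10 CPM, as a description that shares libraries and depth. For Malat1 they were Ubxn4 (Pearson 0.944), Il22ra1 (0.934) and Phgr1 (0.934), for Neat1 Tln1 (0.963), Rpl12 (0.961) and Csf2ra (0.954), and for Rn45s Ank3 (0.905), Rps26 (0.866) and Ddhd2 (0.852). Phgr1 is on the epithelial list, and its counts were at most 51 in the day 0 libraries and at least 756 at day 39. The Neat1 neighbours share the low value of day 0 WT replicate 2, where Tln1 had 1.65 CPM, Csf2ra 2.36 CPM and Rpl12 0 CPM. By Spearman correlation 1 of the 3 genes for Malat1 (Phgr1) and 0 of the 3 for Neat1 and for Rn45s stayed among the first 3.

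Markers of other cells moved beside some of these RNAs. The 20 epithelial markers summed to 437.9 to 1395 total CPM in day 0 KO, 1202 to 1844 in day 0 WT, 4659 to 11430 in day 39 KO and 2074 to 6710 in day 39 WT. Of the 20, 7 were at 0 throughout day 0 KO, 7 throughout day 0 WT, 0 throughout day 39 KO and 1 throughout day 39 WT, and Epcam had 2, 1 and 2661 counts in day 0 KO, 0 and 0 in day 0 WT, 240, 1268 and 70 in day 39 KO and 1072, 0 and 1052 in day 39 WT. All 6 day 39 libraries thus had a higher epithelial sum than all 5 day 0 libraries, and the same held for Malat1 in CPM (18886 or more against 17708 or less), as for 1.60% of tested genes; the part of epithelial cells in the Malat1 values was not tested. In bulk samples fewer cells of a type and less RNA per cell cannot be told apart. The 14 muscle markers were highest in day 0 KO replicates 2 and 3 and in day 39 WT replicate 2, at 24370, 25940 and 18890 total CPM against at most 9305 in the others. In counts Meg3 was highest in the same libraries, but on the scale of the muscle sums it was not: it had 434, 241 and 421 total CPM there, and its highest value, 462 total CPM, was in day 0 WT replicate 1, where the muscle markers summed to 3731. Day 39 WT replicate 3 had 298 total CPM of Meg3 with a muscle sum of 6444; the part of muscle cells was not tested.

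**Figure D5:**
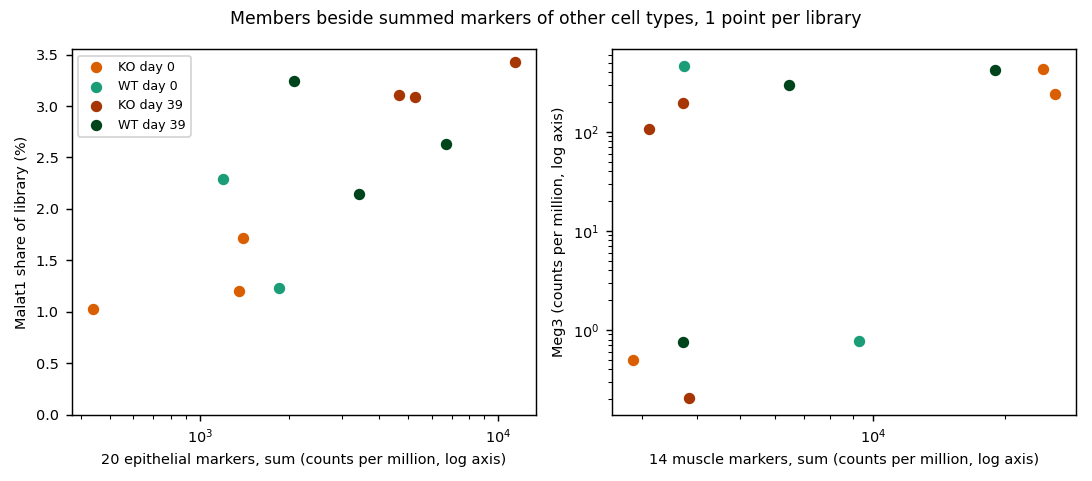
Left, Malat1 share of the library in percent against the sum of 20 epithelial markers; right, Meg3 total CPM against the sum of 14 muscle markers, 1 point per library, coloured by group, with log axes as labelled. All 6 day 39 libraries have an epithelial sum of at least 2074 total CPM, and the 3 libraries highest in muscle markers all have Meg3, as do others with low sums.

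Other long and small noncoding RNAs were read in the same way. Of 30 other long noncoding RNAs on a list, 19 were listed, 8 of them at 0 in every library, and 4 were tested. Over time in WT edgeR called 0 of the 4, with 2 at an unadjusted p-value under 0.05, DESeq2 called 0 of the 3 with an adjusted p-value and limma-voom 0 of 4, where the shares over all genes were 6.68%, 27.8% and 2.42%; H19, the most abundant, had 1, 18423 and 18111 counts in day 0 KO, 1286 and 30 in day 0 WT, 25 to 3039 in day 39 KO and 4855, 13894 and 4 in day 39 WT. Among 22 small structural RNAs and related genes, 11 were listed and 3 tested, with 0 called over time in WT by edgeR (0 at an unadjusted p-value under 0.05), DESeq2 or limma-voom. Lars2, a mitochondrial tRNA synthetase gene, had 45 to 12531 counts per library. Rn4.5s, a small rodent RNA, had 931 to 14840.

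Other small nucleolar RNA hosts were counted next. Of 24 besides Gas5 and Snhg1, 19 were listed and 12 tested, and edgeR called 0 in each of the 6 contrasts. Over time in WT 2 of the 12 had an unadjusted p-value under 0.05, DESeq2 called 2 of the 7 to which it gave an adjusted p-value and limma-voom 0 of 12, against 6.68%, 27.8% and 2.42% of all genes. Of the 12, 8 had a positive value, against 61.8% of all tested genes, and many were at or near 0 in a group, so no median is given. Rps12, a ribosomal protein gene with small nucleolar RNAs in its introns, had 432 to 3403 counts. Snhg18 had 0 counts in all 5 day 0 libraries and 1509, 2 and 3002 in day 39 KO and 968, 208 and 1 in day 39 WT. Of 14 further genes in the imprinted domains of Meg3 and Kcnq1ot1, 13 were listed, 5 tested and 0 called by edgeR in each contrast (over time in WT 0 also at an unadjusted p-value under 0.05, and 0 by DESeq2 or limma-voom). Rian, the RNA next to Meg3, had counts above 3 in 2 libraries (1517 in day 0 KO replicate 3 and 38 in day 39 WT replicate 1), while Cd81, which lies in the Kcnq1ot1 domain and encodes a surface tetraspanin, had 1598 to 7152 in every library.

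Genes of the bodies that these RNAs occupy were not called by edgeR in any contrast. At an unadjusted p-value under 0.05 over time in WT stood 1 paraspeckle, 1 nuclear speckle and 2 ribosome synthesis genes, of 12, 23 and 17 tested. DESeq2 called 3 of 9, 2 of 20 and 1 of 10 with an adjusted p-value, and limma-voom 1, 0 and 0; over all genes the shares were 6.68% unadjusted, 27.8% by DESeq2 and 2.42% by limma-voom, and the counts are no result about these lists. Of 19 paraspeckle protein genes 12 were tested, 7 with a positive value over time in WT. Sfpq, a core paraspeckle protein, ranged from 1 to 2085 counts. All 23 nuclear speckle genes were tested, 19 with a positive value over time in WT, and Srrm2, a speckle scaffold protein, had 22 to 7082 counts. Of 30 genes for ribosomal RNA synthesis and processing 17 were tested, 9 with a positive value over time in WT and 13 with a higher value in KO averaged over days, against 61.8% and 59.6% of all tested genes. Ncl, the nucleolar protein nucleolin, ranged from 15 to 10851 counts and Npm1, nucleophosmin, from 0 to 4890.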

How the data were processed

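Gene expression was measured in 11 libraries made with a Lexogen QuantSeq kit, per the labels' protocols. The authors deposited whole-number read counts per gene symbol, 1 table per library; the submitters' processing notes name Bowtie2, edgeR and hg19, a human build, without their roles, and the annotation, strand setting and use of molecular identifiers are not given in the sources used here. Groups and replicate numbers come from the titles; the table headers of all 6 day 39 libraries give day 35, and that of WT day 0 replicate 2 gives number 3; the titles were followed. The members and lists were chosen with earlier results of these data known.

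The test was the quasi-likelihood F-test of edgeR 4.0.16 (R 4.3.3), with filterByExpr (6987 genes tested, 16295 not), TMM scaling, robust dispersions, and 1 coefficient per group over all 11 libraries. P-values were adjusted over all tested genes by Benjamini-Hochberg at a threshold of 0.05, two-sided. The SE was taken from the fold change and F. For members, p-values are given only for contrasts not used in choosing them. Shares are counts over the library sum; the exact (Clopper-Pearson) 95% interval of Malat1 in KO day 0 replicate 2 was 1.02% to 1.03%, and such intervals cover counting error only. Exact permutation tests of log2(CPM + 1) were added after the data were seen. The libraries were treated as unpaired in the main fit, as no source used here says that replicate numbers mark pairs. Named genes are the members, the 3 genes most like Malat1, Neat1 and Rn45s, Ptger4, and up to 2 genes per list. H19, Snhg18, Rian, Kcnq1, Cd81, Pvalb, Tnnc2, Epcam, Phgr1, Ptprc, Itgam, Fcgr1 and H2-Aa were also named after their values were seen. The transcript sequences of 2 members (Meg3 and Rn45s) are not reported here. Alternatives were 4 other scalings, DESeq2 1.42.0, limma-voom (limma 3.58.1), 2 other filters, a replicate block and leaving out each library.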

Additional observations from a re-analysis of the deposited data

How the results depend on the processing

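The call in KO over time that chose Malat1 and Rn45s was lost for Malat1 in 5 of 20 alternatives (upper quartile, DESeq2, no filter, the 10-count filter, without WT day 0 replicate 1; values 1.24 to 1.78) and for Rn45s in 10 of 20 (the same 5, library size only, and without KO day 0 replicate 1 or 3, WT day 0 replicate 2 or KO day 39 replicate 3; values 0.48 to 0.99). Over time in WT, Malat1 was positive in all alternatives but upper quartile (-0.93) and passed only with limma-voom (0.48, adjusted p = 0.00028). Rn45s was likewise positive except with upper quartile (-1.53, edgeR adjusted p = 4.59e-05) and passed with limma-voom (0.46). That limma-voom error of 0.013 is far below the replicate error of 0.34. Rn45s fell to 0.0079 without WT day 0 replicate 1 and rose to 0.69 without WT day 0 replicate 2. Meg3 turned to -0.21 with upper quartile (leaving out a library, -0.55 to 7.72) and Kcnq1ot1 to 0.37 in the mean log2 CPM, 0.77 with limma-voom and 0.17 with the replicate block (-2.62 to 9.22). Between genotypes averaged over days, Malat1, near 0, turned to -0.095 with DESeq2 and -0.095 with its size factors, -0.073 with library size only, -0.076 without Malat1 and Rn45s in the library size, -0.069 with limma-voom, -0.022 with the 10-count filter (a mean of 10 or more), -0.014 with no filter, -0.0085 with the replicate block and -0.87 with upper quartile (-0.15 to 0.11 when a library was left out). There Rn45s turned to -0.096 with limma-voom and -0.92 with upper quartile (adjusted p = 0.00178; -0.10 to 0.24), Gas5 to -0.021 with upper quartile, Meg3 to 0.090 in the mean log2 CPM (-0.92 to 3.38) and Kcnq1ot1 to 0.042 with the replicate block (-5.42 to 4.57). At day 0 Meg3 turned to -0.020 with library size only, -0.062 without Malat1 and Rn45s and -0.60 with upper quartile (-0.82 to 7.75). Gas5 turned to -1.18 with upper quartile there, and Kcnq1ot1 ranged from -2.81 to 9.38. Malat1 and Rn45s, given within days as values only, moved to -2.03 and -2.04 at day 0 with upper quartile. With limma-voom they were -0.58 and -0.35 at day 0 and 0.44 and 0.15 at day 39. At day 39 Kcnq1ot1 turned to 0.74 with the replicate block (-9.49 to 0.35). The cause of these turns was not tested.

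Counts of called genes also moved. Over time in WT (1 gene) there were 1178 with DESeq2 and 169 with limma-voom, and 0 with library size only, DESeq2 size factors, the replicate block, the 10-count filter or no filter (0 to 1 when a library was left out). Over time in KO (11) there were 1144, 207, 5 with the 10-count filter (a mean of 10 or more), and 0 with no filter or upper quartile (5 to 15). Between genotypes at day 0 (1) there were 1241 with DESeq2, 178 with limma-voom and 0 with library size only, library size without Malat1 and Rn45s, the 10-count filter, no filter or the replicate block (0 to 5). At day 39 (2) there were 555 with DESeq2, 34 with limma-voom, 1 with the replicate block, and 0 with the 10-count filter, no filter or upper quartile (0 to 2). Averaged over days (0) there were 909 with DESeq2, 21 with limma-voom and 15 with upper quartile (0 to 2), and for the interaction (0) 934, 19, 5 with upper quartile and 2 with library size only, DESeq2 size factors or library size without Malat1 and Rn45s (0 to 8). With Malat1 and Rn45s left out of the denominator, the Malat1 share of KO day 39 was 3.90% and the Rn45s share 12.4% in WT day 0, 17.7% in KO day 39 and 15.1% in WT day 39; on the TMM scale the KO day 39 values were 3.77% and 17.1%.

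The replicate numbers share no stated animal or batch. Deviations of same-numbered libraries correlated at -0.0137 to 0.0697 over 15 pairs, and those of other pairs at -0.0697 to 0.0457 over 30. The deviations of the 2 day 0 WT libraries mirror each other, so their values are equal and opposite and cannot decide on pairing. Numbers were those of the titles, although the header of day 0 WT replicate 2 gives 3. With the replicate block no member passed over time in WT or between genotypes, and over time in WT it gave 0.70 for Malat1; over time in KO it turned Kcnq1ot1 to 1.57. At these depths 0 counts of Snhg1 allow up to 0.749 total CPM in the shallowest library.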
